A study of Mus musculus with 18 samples.

Results

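The 10 genes H2-K1, H2-D1, B2m, Tap1, Tap2, Tapbp, Psmb8, Psmb9, Psmb10 and Nlrc5 encode the classical MHC class I molecule, the machinery that makes and loads its peptides, and the transactivator of class I transcription. The genes were chosen with earlier results of these data known, so their counts beside those of all probe sets describe a chosen set. Every probe set whose gene symbol in the platform annotation includes 1 of these names was then taken, whatever its values. This gave 30 probe sets for 10 genes, out of 45037 probe sets for 18193 genes on the array. Of the 30 probe sets, 25 passed the filter on low values and were tested. RNA was measured on 1 array for each of 18 tumours grown in the skin of nude mice from the mouse melanoma line iNRAS-475, in which doxycycline keeps an NRAS oncogene on. All mice drank water with 2 mg/ml doxycycline for the 6 weeks in which tumours grew to between 200 and 500 mm3. The vehicle group (6 tumours) stayed on doxycycline and received vehicle. The MEKi group (6 tumours) received the MEK1 and MEK2 inhibitor AZD6244 (selumetinib) at 100 mg/kg for 4 days, and the -NRAS group (6 tumours) had doxycycline taken away for 4 days. The -NRAS group therefore differs from the other groups both in the oncogene and in the drug doxycycline, and these cannot be told apart here. All 3 groups share a single cell line and hosts that lack mature T cells, while B cells, NK cells and myeloid cells remain. Age, the promoter that drives the transgene and the MHC haplotypes of the line and host are not given in the sources used here.

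MHC class I molecules display fragments of a cell's own proteins at its surface. Proteasomes cut the proteins, the TAP transporter carries the peptides into the endoplasmic reticulum, and tapasin holds the empty heavy chain and beta-2-microglobulin at the transporter until a peptide is bound. Interferon gamma is the classical inducer of this pathway: it acts through JAK kinases and IRF1, replaces the 3 catalytic subunits of the proteasome with their immunoproteasome counterparts, and raises NLRC5, which is recruited to class I promoters by factors bound at the X and Y boxes. Melanomas often carry low class I levels, and macrophages, dendritic cells and endothelial cells express the pathway strongly.

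Values are probe set intensities on a linear scale, and a level is compared between tumours for 1 probe set, never between probe sets. Changes are differences of group means of log2(intensity + 16) with their standard errors, from 1 limma fit over the 33777 probe sets above the filter. A change is called when its Benjamini-Hochberg adjusted p over all these probe sets is below 0.05. Array medians lay between 72.3 and 78.5. Of 9 melanocytic marker genes 7 passed the filter, Sox10 and Mlana among them, while Tyr and Tyrp1 did not. The tumours also held transcripts of host cells, so a level here is that of the whole tissue, and fewer cells of a type cannot be told apart from less RNA per cell.

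All 10 genes were higher in the tumours taken off doxycycline than in vehicle tumours. In -NRAS tumours 22 of the 25 tested probe sets were higher than in vehicle tumours and 0 were lower, where 28.0% of all probe sets tested were called higher. In 21 of the 25 every -NRAS tumour lay above every vehicle tumour, against 17.3% of all probe sets. Both counts include H2-D1 1450170_x_at, which passed the filter only through its -NRAS tumours. With 1 probe set per gene (the one with the highest mean) all 10 genes were called higher and none overlapped vehicle. The median change was 1.19 over the 25 probe sets and 1.49 over the 10 genes, while the median over all probe sets tested was −0.01. Changes of the 10 genes ran from 0.54 for B2m to 2.23 for Nlrc5.

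**Figure D1:**
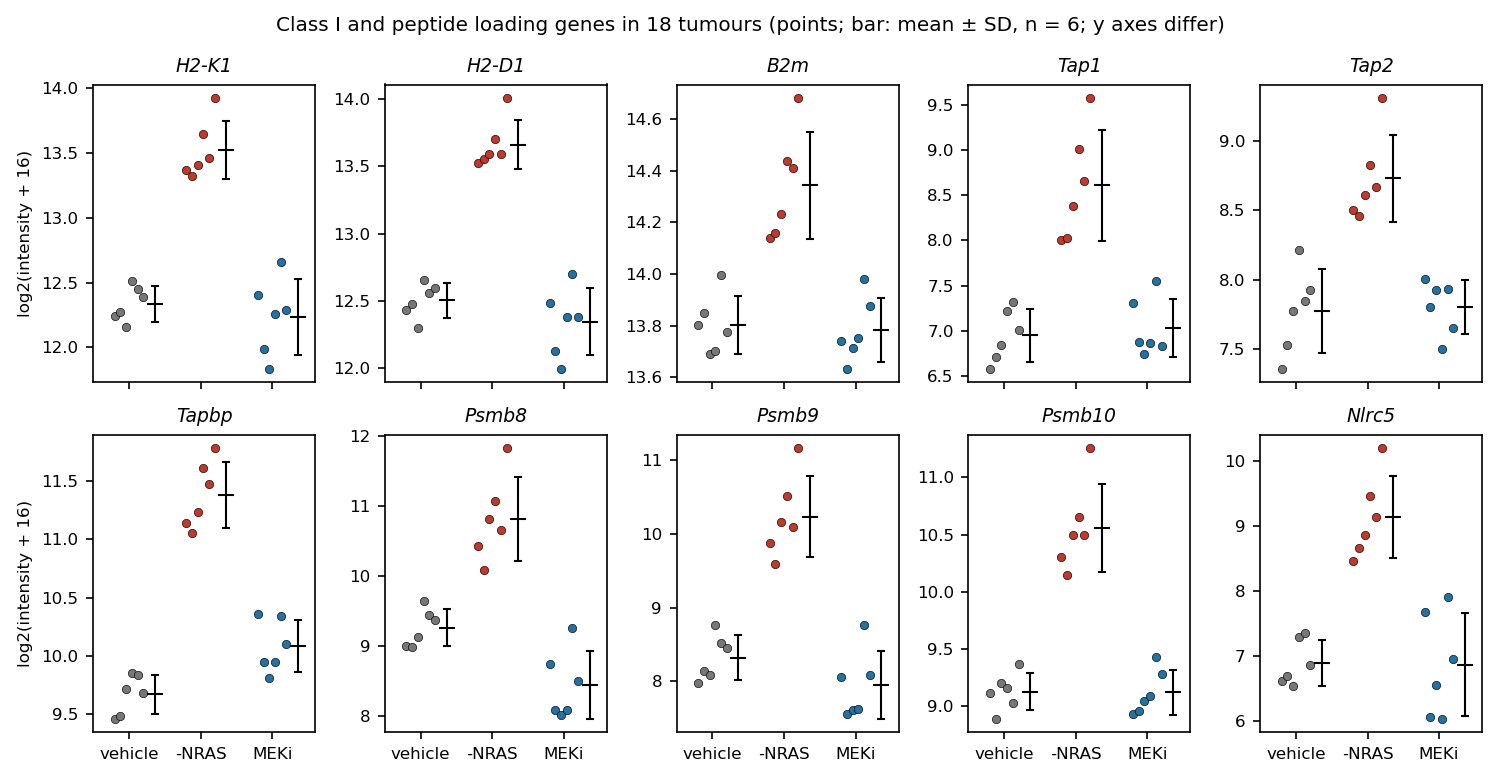
Level of each gene, as log2(intensity + 16) of its probe set with the highest mean, in the 6 tumours of each group (points, in order of replicate number), with the group mean and SD beside them. In all 10 genes the -NRAS tumours lie above every vehicle and every MEKi tumour, while the vehicle and MEKi tumours overlap.

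H2-K1 and H2-D1 encode the polymorphic heavy chains that hold the peptide. The H2-K1 probe set 1451931_x_at read from 4547 to 5839 with a median of 5136 in vehicle tumours. In -NRAS tumours it read from 10249 to 15527 with a median of 11076, and in MEKi tumours from 3642 to 6456 with a median of 4925. The -NRAS tumours thus formed a separate, higher group, while the MEKi tumours spread to both sides of the vehicle tumours. The -NRAS change was 1.19 ± 0.12, a 2.28-fold difference on the log2(intensity + 16) scale (limma adjusted p = 9.7e-08). The other 3 H2-K1 probe sets changed by 0.81 to 1.51, and all 4 separated -NRAS from vehicle tumours without overlap. The H2-D1 probe set 1425545_x_at read from 5011 to 6428 with a median of 5856 in vehicle tumours, from 11756 to 16469 with a median of 12325 in -NRAS tumours and from 4072 to 6629 with a median of 5324 in MEKi tumours. Its -NRAS change was 1.16 ± 0.10 (limma adjusted p = 1.73e-08), close in size to that of H2-K1.

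The 7 tested H2-D1 probe sets did not all move alike. The other 3 bright ones, 1451784_x_at, 1451683_x_at and 1426324_at, changed by 1.14, 1.35 and 1.31. The 2 dim ones called higher changed less, with 0.60 ± 0.11 for 1450170_x_at and 0.46 ± 0.15 for 1427651_x_at, whose -NRAS and vehicle tumours overlapped. Probe set 1450170_x_at passed the filter, cut at an intensity of 23.5, only through its -NRAS tumours (median 39.8). Its medians were 21.7 in vehicle and 19.0 in MEKi tumours, so its call is not independent of the filter. The probe set 1452544_x_at read from 47.7 to 62.7 with a median of 54.9 in vehicle and from 49.1 to 79.6 with a median of 58.1 in -NRAS tumours, and was not called (0.09 ± 0.08, limma adjusted p = 0.373). The other 2 H2-D1 probe sets lay below the filter. Of the 3 probe sets shared by several class I symbols, the one listed for H2-K1 and H2-D1 changed by 1.53 and the one for H2-Q5 and H2-K1 by 1.75. The third, listed for Gm38417, H2-Q2 and H2-D1, did not pass (−0.06). Most heavy chain probe sets end in _x_at, the maker's mark for probes that can match several genes, so how the signal divides between H2-K1, H2-D1 and other heavy chains is uncertain.

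B2m encodes the invariant light chain, beta-2-microglobulin, and had the smallest -NRAS change of the 10 genes. The probe set 1449289_a_at read from 13212 to 16321 with a median of 14143 in vehicle tumours, from 18031 to 26252 with a median of 20484 in -NRAS tumours and from 12699.7 to 16148 with a median of 13733 in MEKi tumours. The -NRAS tumours were higher without overlap, and the change was 0.54 ± 0.09 (1.45-fold, limma adjusted p = 2.41e-05). The other B2m probe set, 1452428_a_at, changed by 0.51 ± 0.09.

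Promoters are shown here because H2-K1, H2-D1 and B2m share a sequence arrangement in them. Tapbp, Psmb8, Psmb9 and Psmb10, which lack it, were also higher in -NRAS tumours, and B2m, which has it, changed least. A link between the arrangement and the changes was not tested. Tap1 is set beside them as a gene that holds both motifs without that spacing. The sequences are the 250 bases before the start of transcription from RefSeq (mouse build GRCm38.p6), whose promoter table held 8 of the 10 genes. Capitals mark matches, on either strand, to TGACG (the core of the X2 box), CCAAT (the Y box), a pair of GAAA with any 2 bases between or GAANNGAAA (interferon response type elements) and GGGNNTTCC (an NF-kB type element).
H2-K1, chr17:34000334-34000583, minus strand: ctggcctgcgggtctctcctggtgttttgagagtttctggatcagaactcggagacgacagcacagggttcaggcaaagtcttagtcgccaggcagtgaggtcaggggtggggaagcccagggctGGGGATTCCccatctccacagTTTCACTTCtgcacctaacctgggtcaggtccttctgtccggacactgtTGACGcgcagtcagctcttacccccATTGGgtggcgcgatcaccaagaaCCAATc
H2-D1, chr17:35262844-35263093, plus strand: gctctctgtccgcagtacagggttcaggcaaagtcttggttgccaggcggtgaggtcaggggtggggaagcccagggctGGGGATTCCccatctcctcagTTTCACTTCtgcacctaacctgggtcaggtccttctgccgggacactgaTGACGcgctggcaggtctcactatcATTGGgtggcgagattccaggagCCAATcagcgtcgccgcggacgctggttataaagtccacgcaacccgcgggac
B2m, chr2:122147437-122147686, plus strand: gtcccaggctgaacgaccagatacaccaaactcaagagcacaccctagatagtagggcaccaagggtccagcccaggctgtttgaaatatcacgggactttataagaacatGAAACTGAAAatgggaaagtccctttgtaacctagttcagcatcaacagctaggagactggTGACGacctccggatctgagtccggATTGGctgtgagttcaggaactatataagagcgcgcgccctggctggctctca
Tap1, chr17:34187306-34187555, plus strand: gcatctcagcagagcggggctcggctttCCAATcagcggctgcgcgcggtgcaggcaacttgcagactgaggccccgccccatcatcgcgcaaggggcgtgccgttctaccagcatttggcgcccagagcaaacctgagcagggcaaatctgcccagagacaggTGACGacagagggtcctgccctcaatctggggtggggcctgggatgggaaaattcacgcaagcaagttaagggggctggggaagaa

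In H2-K1, H2-D1 and B2m the X2 core TGACG was followed by ATTGG, the Y box read on the other strand, after exactly 20 bases. A search for the same pair with 10 to 30 bases between them, set after these sequences had been seen, found it in 211 of 32851 promoter windows (0.6%), and in no other of the 8 genes. Single motifs were commoner. TGACG was present in 5 of the 8 genes and 17.8% of all windows, and CCAAT in 6 of the 8 and 33.8%. The pair of GAAA was found in B2m (3.0% of all windows), and GAANNGAAA and GGGNNTTCC both in H2-K1 and H2-D1 (6.3% and 5.0%). TTCNNNGAA, a GAS type element that was also searched, was found only in Psmb8 among the 8 genes (7.0%). The H2-K1 and H2-D1 windows matched at 177 of 203 aligned bases (87.2%), so these genes do not count as independent examples. Psmb9 and Tap1 lie head to head, and their 250-base windows overlap by 225 bases on opposite strands, so a match in the shared stretch counts for both. By their order in the same assembly, Psmb9, Tap1, Psmb8 and Tap2 are neighbouring protein-coding genes of the MHC on chromosome 17.

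Tap1 and Tap2 encode the chains that pair to form the peptide transporter. The Tap1 probe set 1416016_at read from 79.8 to 144 with a median of 106 in vehicle tumours, from 239.8 to 747 with a median of 353 in -NRAS tumours and from 91.2 to 172 with a median of 101 in MEKi tumours. The lowest -NRAS tumour was above the highest vehicle tumour, and the change was 1.66 ± 0.22 (3.16-fold, limma adjusted p = 3.32e-06). The other tested Tap1 probe set, 1448177_at, was dim and was not called (0.06 ± 0.08), and the remaining 2 lay below the filter. Tap2 read from 149 to 281 with a median of 209 in vehicle tumours, from 336 to 617 with a median of 382 in -NRAS tumours and from 165 to 241 with a median of 217 in MEKi tumours. It changed by 0.95 ± 0.14 (1.93-fold, limma adjusted p = 1.33e-05), the second smallest change among the 10 genes.

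Tapbp encodes tapasin, which bridges TAP and the heavy chain. The probe set 1421812_at read from 688 to 906 with a median of 814 in vehicle tumours, from 2106 to 3506 with a median of 2609 in -NRAS tumours and from 879.6 to 1296 with a median of 1027 in MEKi tumours. All -NRAS tumours exceeded 1296, the highest MEKi value. The change was 1.71 ± 0.12 (3.28-fold, limma adjusted p = 7.78e-10), and the dimmer probe set 1450378_at changed by 1.08 ± 0.09.

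Psmb8, Psmb9 and Psmb10 encode the catalytic subunits of the immunoproteasome. Psmb8 read from 488 to 777 with a median of 595 in vehicle tumours, from 1070.4 to 3597 with a median of 1689 in -NRAS tumours and from 242 to 591 with a median of 299 in MEKi tumours. Psmb9 read from 236 to 418 with a median of 299, from 753 to 2276 with a median of 1108 and from 172 to 417 with a median of 216 in the same order of groups. Psmb10 read from 458 to 646 with a median of 547, from 1119 to 2425 with a median of 1428 and from 472 to 675 with a median of 521. In all 3 genes the -NRAS tumours lay above both other groups, and the MEKi and vehicle tumours overlapped. The -NRAS changes were 1.55 ± 0.24 for Psmb8, 1.92 ± 0.23 for Psmb9 and 1.43 ± 0.14 for Psmb10 (limma adjusted p = 2.01e-05, 8.52e-07 and 5.15e-08). The other Psmb8 probe set lay below the filter.

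The subunits that these proteins replace, encoded by Psmb5, Psmb6 and Psmb7, did not rise with them. In -NRAS tumours Psmb5 fell by 0.46 ± 0.06 and Psmb6 fell by 0.14 ± 0.05, while Psmb7 was not called (−0.01 ± 0.11). The change in the log2 ratio of each immunoproteasome subunit to its constitutive counterpart was compared between groups with a two-sided exact permutation test over 6 against 6 tumours, adjusted over the 9 comparisons. Against vehicle the ratio rose in -NRAS tumours by 2.01 for Psmb8 over Psmb5, by 2.06 for Psmb9 over Psmb6 and by 1.44 for Psmb10 over Psmb7. Each had exact p = 0.00216, the smallest this design allows, and adjusted p = 0.00325, and in each pair all 6 -NRAS tumours exceeded all 6 vehicle tumours. In MEKi tumours the ratio of Psmb8 over Psmb5 differed from vehicle by −0.42 (adjusted exact p = 0.105) and that of Psmb9 over Psmb6 by −0.28 (adjusted exact p = 0.273). Psmb10 over Psmb7 was higher by 0.38 (adjusted exact p = 0.0445), in which Psmb7 fell by 0.38 (limma adjusted p = 0.00738) and Psmb10 was not called (limma adjusted p = 0.988). That call was lost when any 1 of vehicle replicates 1, 2, 3 and 5 or MEKi replicates 1, 3, 4, 5 and 6 was left out (0.29 to 0.40, adjusted exact p up to 0.0863).

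**Figure D2:**
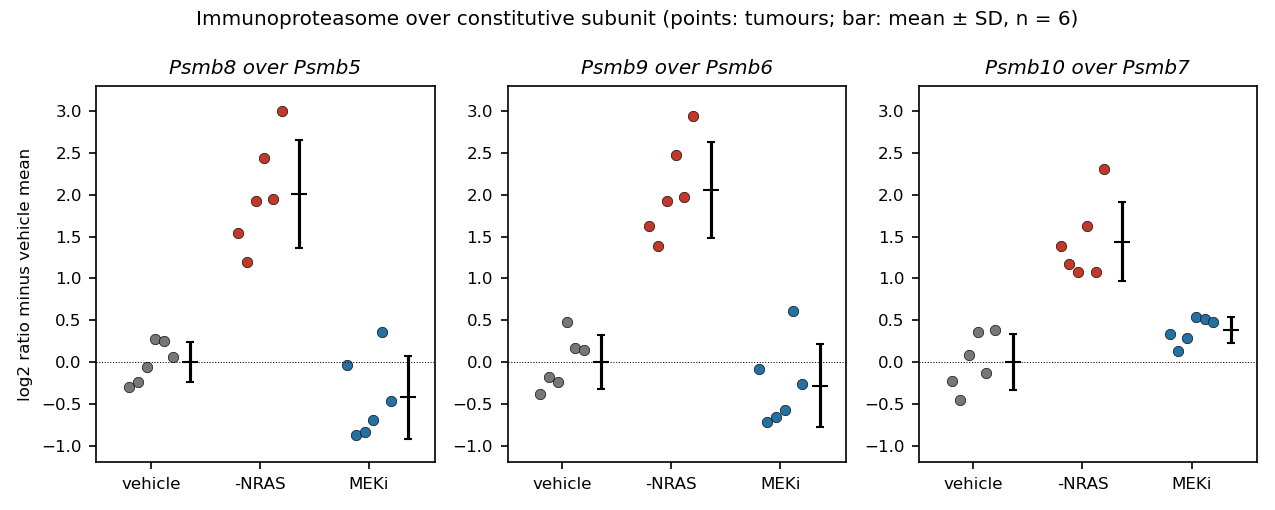
Log2 ratio of each immunoproteasome subunit to the constitutive subunit it replaces, set to 0 at the vehicle mean, in 6 tumours per group (points) with mean and SD. The -NRAS tumours are higher by 2.01, 2.06 and 1.44 on average and overlap neither other group.

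Nlrc5 encodes the transactivator that acts on class I promoters, as CIITA does on class II promoters. It read from 77.2 to 147 with a median of 94.0 in vehicle tumours, from 334 to 1149.8 with a median of 498 in -NRAS tumours and from 49.5 to 224 with a median of 93.3 in MEKi tumours. The -NRAS tumours were separate from both other groups, and the change of 2.23 ± 0.32 (4.70-fold, limma adjusted p = 6.58e-06) was the largest point estimate of the 10 genes, with the largest standard error. Nlrc5 also had the widest range within each of the 3 groups. Its highest MEKi tumour read 4.52-fold above its lowest, and its highest -NRAS tumour 3.44-fold above its lowest, whereas for B2m these ratios lay between 1.24 and 1.46 in the 3 groups.

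Tumours treated with the MEK inhibitor did not show this pattern. In MEKi tumours 1 of the 25 probe sets was higher than in vehicle tumours and 2 were lower, where 20.6% of all probe sets tested were called higher and 20.1% lower. The MEKi and vehicle tumours overlapped in all 25, but the share of all probe sets that did so is not given here. The median change was −0.05 over the 25 probe sets and −0.02 over the 10 genes (0.00 over all probe sets tested). Tapbp rose by 0.41 ± 0.12 at 1421812_at (limma adjusted p = 0.0111), while 1450378_at stood at 0.04 ± 0.09. Psmb8 fell by 0.82 ± 0.24 (limma adjusted p = 0.0108), with 1 MEKi tumour at 591 and the other 5 lower. B2m fell by 0.28 ± 0.09 at 1452428_a_at (limma adjusted p = 0.0197), while the brighter B2m probe set stood at −0.02 ± 0.09. Nlrc5 stood at −0.03 ± 0.32 and Psmb9 at −0.37 ± 0.23, and neither was called. These standard errors are wide, so a missed call does not show that the genes were unchanged. Of 16 macrophage markers 12 fell in the same tumours, and their part in the Psmb8 and B2m values was not tested. None of the 3 calls passed at an adjusted p below 0.01, and the B2m call was lost without MEKi replicate 1 (−0.23, limma adjusted p = 0.0535).

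**Figure D3:**
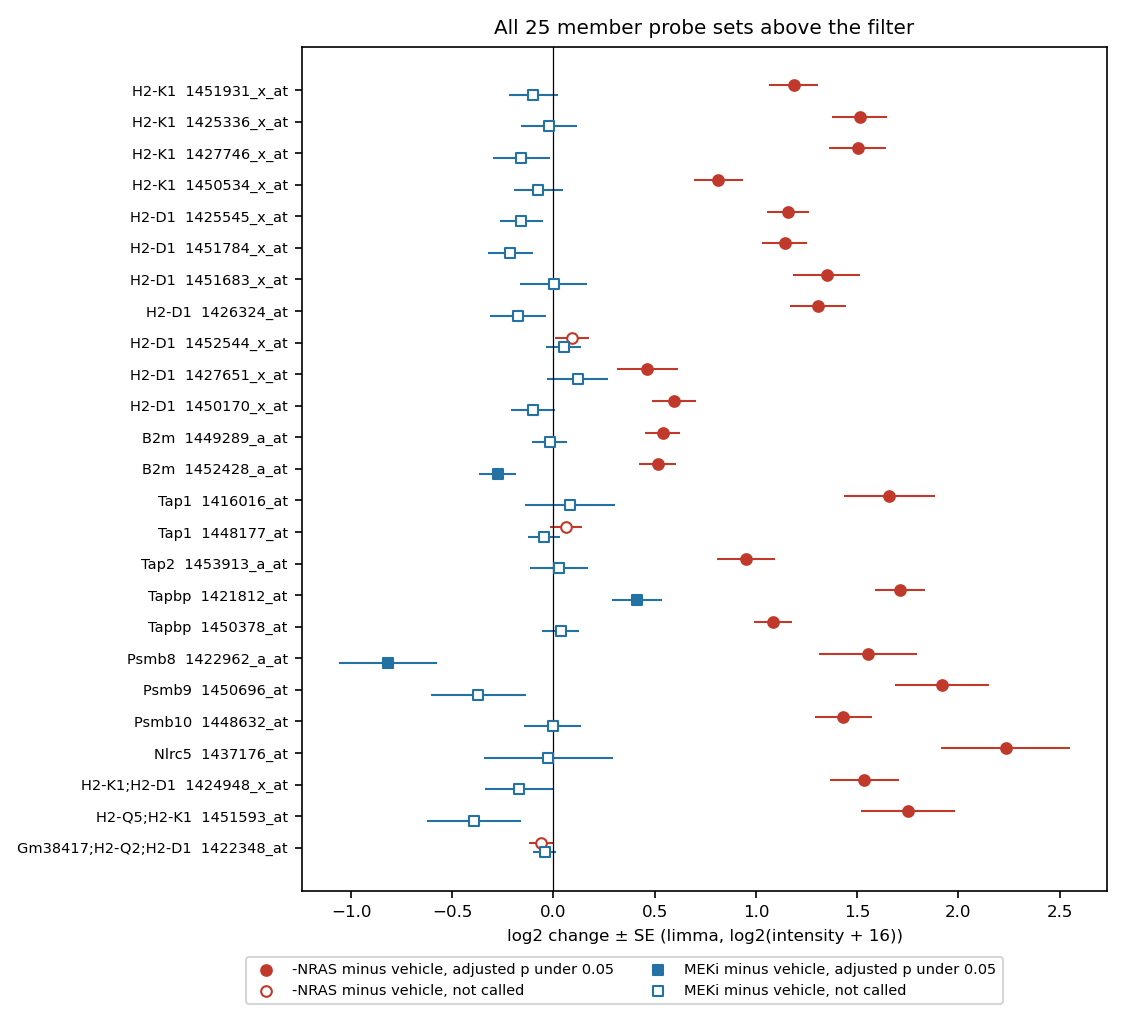
Log2 change with its standard error for all 25 tested probe sets of the 10 genes, in -NRAS against vehicle tumours (red circles) and MEKi against vehicle tumours (blue squares), which share the vehicle tumours. Filled symbols have a limma adjusted p below 0.05: 22 of the red ones lie to the right, and 3 of the blue ones are filled, 1 to the right and 2 to the left.

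Set directly against MEKi tumours, -NRAS tumours were higher in 21 of 25 probe sets and lower in 0, where 20.6% of all probe sets were called higher. All 21 lay without overlap above MEKi, against 12.0% of all probe sets, and all 10 genes were called. Among the 21 is H2-D1 1450170_x_at, which passed the filter only through its -NRAS tumours. The median difference was 1.32 over the probe sets and 1.38 over the genes. It was largest for Psmb8 (2.37 ± 0.24), Psmb9 (2.29 ± 0.23) and Nlrc5 (2.26 ± 0.32), and smallest for B2m (0.56 ± 0.09) and Tap2 (0.92 ± 0.14). Limma adjusted p values of these 5 ran from 1.72e-07 to 3.29e-05. This comparison uses the same -NRAS tumours as the one against vehicle, so the 2 are not independent. The 4 probe sets not called were the 3 that also missed the threshold against vehicle and H2-D1 1427651_x_at (0.35 ± 0.15, limma adjusted p = 0.0766).

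Within each group the 10 genes tended to be high or low in the same tumours. In the -NRAS group replicate 6 was highest in 10 of 10 genes, by 0.67 on average above its group's mean on the log2 scale, and the lowest tumour was replicate 2 in 6 genes and replicate 1 in 4. In the MEKi group replicate 5 was highest in 8 genes and replicate 1 in the other 2. In the vehicle group replicate 4 was highest in 6 genes, replicate 5 in 3 and replicate 6 in 1. After subtracting group means, the 45 pairs of genes correlated over the 18 tumours with r from 0.42 to 0.98 and a median of 0.79. The closest pairs were Psmb8 with Psmb9 (0.98) and H2-K1 with H2-D1 (0.98), and the loosest was B2m with Tap2 (0.42). These values describe how the genes move over shared arrays and tissue pieces. Without -NRAS replicate 6 the count in -NRAS against vehicle tumours was still 22 of 25, and so it was with any other single tumour left out.

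**Figure D4:**
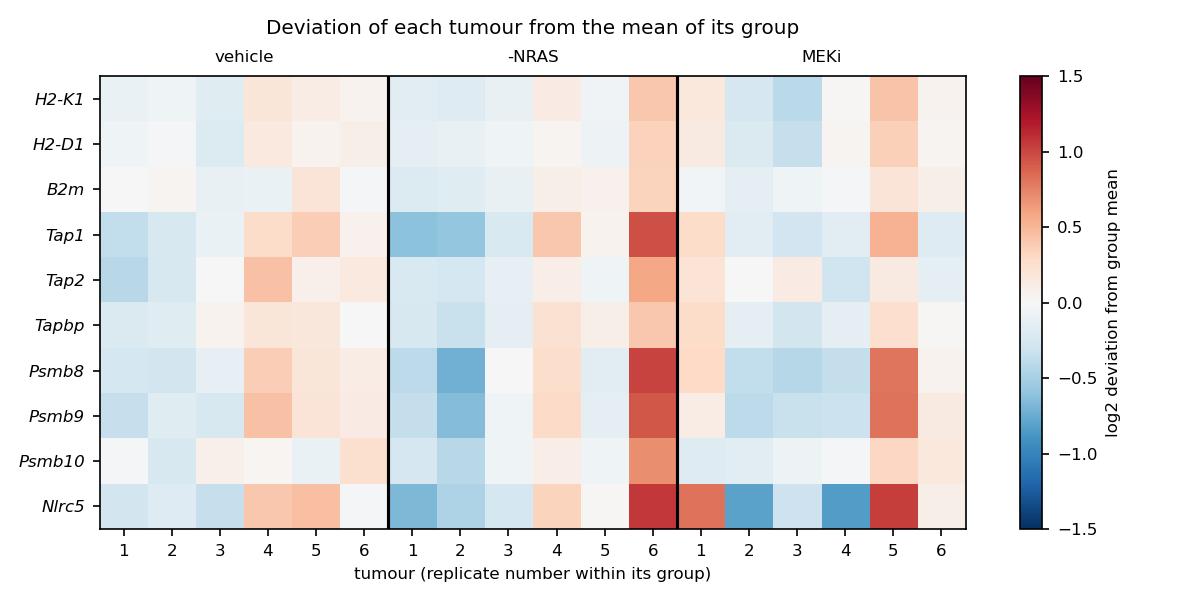
Each tumour's deviation from the mean of its group, in log2 units, for the 10 genes (lines) and 18 tumours (columns, by replicate number). The column of -NRAS replicate 6 is red throughout, with a mean deviation of 0.67, and MEKi replicate 5 is red with 0.48.

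The tumours that were high in class I genes also differed in immune transcripts. In -NRAS replicate 6 Cxcl9, a chemokine gene induced by interferon gamma, read 6343, against 271 to 2707 in the other 5 tumours of the group. Cd3g, a T cell receptor complex gene that NK cells can also express, read 759 against 49.5 to 327, and the cytotoxic granule gene Nkg7 read 815 against 71.1 to 242. Cd3e, another gene of that receptor complex, differed less and read 146 against 83.6 to 130. Cd3g, Nkg7 and Cd3e all count in the summed T and NK markers given below. Ifng itself, looked at after its values were known and below the filter in mean, read 40.5 in this tumour and 13.2 to 16.4 in the others. Of its summed markers, those of T and NK cells (2049), macrophages (86280) and B cells (400.0) were the highest of the group. Those of dendritic cells (1376) ranked 4 of 6 and those of fibroblasts (144061) 5 of 6. Endothelial (2699) and melanocytic (10320.1) marker sums were the lowest of the group. In the other groups Cxcl9 read 444 and 498 in vehicle replicates 4 and 5, against 75.3 to 167 in the rest, and 362 and 570 in MEKi replicates 1 and 5, against 53.0 to 118. Summed T and NK markers ranked 1 and 2 in vehicle replicates 4 and 5, and in MEKi replicates 5 and 1. Macrophage sums ranked 2 and 4 in those MEKi tumours. They did not follow the class I order in every tumour: vehicle replicate 5 had the lowest sum of its group (25910.0) and vehicle replicate 4 ranked 4 of 6. In the -NRAS group replicate 1, low in class I genes, ranked 2 (84804). The part of these transcripts in the class I levels was not tested. Tumour -NRAS replicate 2, low in class I genes, had a summed keratinocyte marker intensity of 28041, where the other 5 read 611 to 836.

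Genes around the pathway, from lists of known function and with 1 probe set each, moved unevenly in -NRAS tumours, where 26.7% of all probe sets tested were called lower and 28.0% higher. Of 4 proteasome activator and assembly genes 1 rose and 2 fell. Psme1, a subunit of the interferon-inducible PA28 activator, rose by 1.09 ± 0.08, and Psme3, a subunit of the nuclear PA28 gamma activator, fell by 0.87 ± 0.08. Of 5 loading chaperones and editors 1 rose, Tapbpl (1.06 ± 0.13), a tapasin-related peptide editor. The general chaperones of the endoplasmic reticulum stood at 0.14 for Calr, −0.07 for Canx, −0.06 for Pdia3 and 0.05 for Hspa5, none called. Of 6 peptide trimming enzymes 1 rose and 3 fell, and the shares of these short lists that rose lie near or below that of all probe sets. Erap1, which trims peptides inside the endoplasmic reticulum, rose by 1.10 ± 0.14, while the cytosolic peptidase genes Thop1, Tpp2 and Nrdc fell by 0.99, 0.45 and 0.40.

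Of 23 other class I heavy chain genes listed, 9 had a tested probe set of their own, and in -NRAS tumours 5 of these rose and 0 fell (median 0.26). They were Hfe, which controls iron uptake (1.35 ± 0.14), H2-M3, which presents formylated peptides (1.20 ± 0.11), Fcgrt, the neonatal Fc receptor (1.16 ± 0.15), Cd1d1, which presents lipids (0.90 ± 0.12), and H2-Q5 (0.26 ± 0.08). The H2-Q5 probe set was dim and close to the filter, which it passed mainly through its -NRAS tumours (median 29.1). In vehicle and MEKi tumours its medians were 21.6 and 22.1, below the intensity of 23.5 at the cut. It read 24.5 to 39.9 in -NRAS and 19.5 to 29.7 in vehicle tumours, which overlap. In MEKi tumours none of the 9 was called at a limma adjusted p below 0.05. The shares of all probe sets called higher and lower were 28.0% and 26.7% in -NRAS tumours, and 20.6% and 20.1% in MEKi tumours. Of 10 factors that bind class I promoters 6 rose and 1 fell in -NRAS tumours (median 0.17), and 6 rose and 0 fell in MEKi tumours (median 0.23). Irf1 read from 577 to 699 with a median of 646 in vehicle tumours and from 1405 to 3182 with a median of 1627 in -NRAS tumours, a change of 1.44 ± 0.14. In MEKi tumours Irf1 read from 755 to 952 with a median of 861, a smaller but called change of 0.38 ± 0.14 (limma adjusted p = 0.0364). Rfx5, a subunit of the X box factor, changed by 0.66 ± 0.07 in -NRAS and 0.23 ± 0.07 in MEKi tumours, and Irf2 and Nfyc rose by 0.41 and 0.22 in -NRAS tumours.

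Among all probe sets tested, 28.0% were called higher and 26.7% lower in -NRAS tumours, and 20.6% and 20.1% in MEKi tumours. Of 12 tested genes of the interferon gamma pathway 9 rose and 2 fell in -NRAS tumours (median 1.37). The largest were Cxcl9 (2.68 ± 0.72), the guanylate binding protein genes Gbp2 (2.37 ± 0.47) and Gbp3 (2.05 ± 0.30), and the chemokine gene Cxcl10 (1.64 ± 0.42). Ciita, the class II transactivator gene, rose by 1.53 ± 0.15. The feedback inhibitor gene Socs1 fell by 0.85 ± 0.11 and the receptor gene Ifngr2 by 0.30 ± 0.09, while the receptor gene Ifngr1 rose by 0.55 ± 0.07. In MEKi tumours 1 of the 12 rose (Irf1) and the same pair fell, Socs1 by 1.00 and Ifngr2 by 0.56 (limma adjusted p = 9.1e-07 and 6.52e-05). All 9 tested class II genes rose in -NRAS tumours (median 1.56), led by Cd74, H2-DMa, H2-Ab1 and H2-Aa with 2.30, 2.08, 1.93 and 1.90. In MEKi tumours 5 of the 9 class II genes fell and 0 rose (median −0.71), beside 2 lower and 1 higher of the 25 probe sets of the class I pathway. The difference between these lists was not tested.

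**Figure D5:**
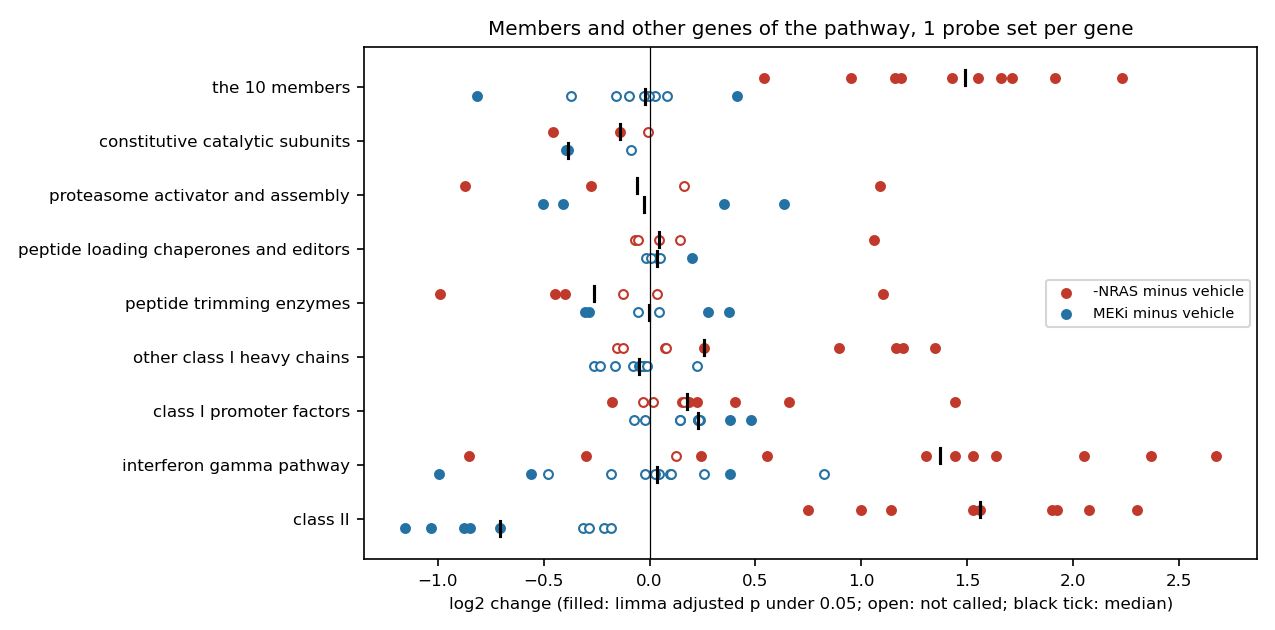
Log2 change of each gene, 1 probe set per gene, in -NRAS (red) and MEKi (blue) against vehicle tumours, for the 10 genes and for the lists around them. Filled points have a limma adjusted p below 0.05 and black ticks are medians: the 10 genes have medians of 1.49 and −0.02, class II genes 1.56 and −0.71.

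Markers of host cell types moved with the treatment. Beside their counts stand the shares of all probe sets called: 28.0% higher and 26.7% lower in -NRAS tumours, 20.6% and 20.1% in MEKi tumours. In -NRAS tumours 14 of 16 macrophage markers rose and 0 fell (median 1.26), and their summed intensity (over all markers with a probe set of their own, those below the filter included) ran from 68925 to 86280, against 25910 to 42866 in vehicle tumours. In MEKi tumours 12 of the 16 fell and 0 rose (median −0.87), with sums from 12416 to 28946. Dendritic cell markers rose in 6 of 6 tested genes in -NRAS tumours (sums of 955 to 2021, against 553 to 715 in vehicle), endothelial markers in 9 of 10 (2699 to 3636, against 1418 to 2167), and B cell markers in 3 of 3 (117 to 400.0, against 87.3 to 122). Of 6 tested T and NK cell markers 4 rose and 1 fell (467 to 2049, against 371 to 503). Among these 6, Cd3e was called higher (0.25 ± 0.10) and Cd8a was not called (0.16 ± 0.09, limma adjusted p = 0.137). The NK receptor genes Ncr1 and Klrk1 lay below the filter. Fibroblast markers rose in 6 of 8 and fell in 2 (136676 to 165540.0, against 52149.6 to 64806). In MEKi tumours 5 of the 8 rose and 1 fell, with sums of 82913 to 89196 that also lay above vehicle. Skeletal muscle markers rose in 6 of 6 in both -NRAS and MEKi tumours. Melanocytic markers rose in 5 of 7, with sums of 10320.1 to 13566 in -NRAS and 9380 to 11399 in vehicle tumours, which overlap. Keratinocyte markers were called in 0 of 6. No marker was at 0 in these intensities. The part of these cells in the class I changes was not tested.

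Of 14995 genes with a tested probe set, those whose levels followed the 10 genes most closely within groups (Pearson r of the residuals with the mean of the 10 genes, over 18 tumours) were Ifi47 (0.959), AW112010 (0.959), Gbp3 (0.957), Irgm2 (0.956) and Ccl5 (0.951). Ifi47, Gbp3 and Irgm2 encode interferon-inducible GTPases, Ccl5 a chemokine, and AW112010 a transcript induced in immune activation. Their changes in -NRAS tumours were 2.44, 2.32, 2.05, 2.76 and 1.57 in that order, all above the median of the 10 genes. In MEKi tumours they were −0.22, −0.72, 0.10, 0.54 and −0.23.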

How the data were processed

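The deposited table holds 18 arrays of 45037 probe set intensities, which the authors had summarised and scaled. The submitters' processing notes name MAS5 and RMA, without saying which made these intensities. They were read as linear because all are positive and array medians lay between 72.3 and 78.5; on another scale fold changes would differ. Total RNA (10 ug) came from about 50 mg of each tumour, trimmed of skin, per the labels' protocols, which call the tumours distinct without saying whether any shared a mouse. No batch or date is given, and the number of arrays limits the precision.

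Platform annotation gave 34945 probe sets 1 symbol, 932 several and 9160 none. Values became log2(intensity + 16), and probe sets with a mean above the 25th percentile (log2 of 5.30) were kept. A single limma model (version 3.58.1, R 4.3.3) was fitted to the 3 groups, with Benjamini-Hochberg adjustment over 33777 probe sets, and was tested on simulated data. Subunit ratios were compared with exact permutation tests in Python 3.11.15. The members and lists were chosen with earlier results of these data known. All tested member probe sets were described, though not each by its number. Other genes named include up to 4 called genes per pathway list with the largest -NRAS change and the 5 most similar genes. A fixed set of pathway genes was also looked up (Psme2 and H2-T23 had no probe set of their own). Alternatives covered the pseudocount, filter, scaling, fit, threshold, probe set choice, the replicate number as a block and leaving out each tumour.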

Additional observations from a re-analysis of the deposited data

Results flagged for a closer look

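Among 75 sets of 6 tumours (25 probe sets in 3 groups), 4 (5.3%) held a tumour far from the other 5 by Dixon's test, where chance gives about 1 in 20. At H2-D1 1425545_x_at -NRAS replicate 6 read 16469 and the others 11756 to 13318. At H2-D1 1450170_x_at the same tumour read 69.2 and the others 31.5 to 42.6. At B2m 1452428_a_at vehicle replicate 3 read 10308, below the others at 12128 to 13310.4. At the probe set listed for Gm38417, H2-Q2 and H2-D1 (1422348_at) -NRAS replicate 5 read 33.4 and the others 24.6 to 25.8.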

How the results depend on the processing

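None of the results reversed. Of 2187 log2 changes of member probe sets under an alternative, 2179 kept their call and, where called, their direction, 5 lost the call and 3 gained it; of 270 counts 261 stayed within 1.5 times. With 1 probe set per gene the counts were 10 called and 10 higher in -NRAS against vehicle tumours, 10 and 10 against MEKi tumours, and 1 lower in MEKi against vehicle tumours. At an adjusted p below 0.01 the MEKi counts were 0 called, 0 higher and 0 lower. Without the filter 24, 3 and 23 probe sets were called in the 3 comparisons, of more tested. With 1 tumour left out, -NRAS against vehicle kept 22 called, and MEKi against vehicle had 2 to 4 called, with 1 to 3 lower (1 without MEKi replicate 1). The MEKi ratio of Psmb10 over Psmb7 ran from 0.29 to 0.46, that of Psmb8 over Psmb5 from −0.58 to −0.33 and that of Psmb9 over Psmb6 from −0.46 to −0.18. The last 2 passed without MEKi replicate 5 (−0.58, adjusted exact p = 0.0223, and −0.46, adjusted exact p = 0.039). H2-D1 1451784_x_at passed as lower in MEKi tumours without that tumour (−0.29, limma adjusted p = 0.0343). H2-D1 1427651_x_at passed in -NRAS against MEKi tumours without -NRAS replicate 2 (0.43) or MEKi replicate 5 (0.41). With the replicate number as a block the member counts were 22, 3 and 21. Correlations of same-numbered tumours ran from −0.121 to 0.339, and 6 of 18 were above 0.1. Those of differently numbered tumours were not set beside them, so this range does not decide whether numbers mark pairs. The numbers were not taken as pairs because the labels do not say that they mark a shared litter, batch or day. The causes were not tested. The number of tumours limits how small a MEKi change could be called.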
